A study of Mus musculus with 6 samples.

Results

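Actins are the thin filament proteins of muscle and the microfilament proteins of all cells. This report follows the 6 actin genes of the mouse and Myl9, the regulatory myosin light chain of smooth muscle, in skeletal muscle after electrical pacing. The members were the 7 genes Acta1, Actc1, Acta2, Actg2, Actb, Actg1 and Myl9, taken wherever a probe was annotated with exactly 1 of these symbols. All 7 genes had a probe, 21 probes in total, of 13872 on the array and of 6609 with exactly 1 symbol, which named 3939 genes. Acta1 had 10 probes, Actg1 had 4, Actc1 had 3, and Acta2, Actg2, Actb and Myl9 had 1 each. The genes had been chosen as a family, with the high value of Actg2 on the sham array already known.

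Total RNA of mouse skeletal muscle was measured on 6 arrays with 2 channels each, 1 array per group. The paced groups came from mice with an implanted pacer that was run for 3 h, and the muscle was taken 0, 1, 3, 8 or 24 h after stimulation ended. The sham mice carried an implanted pacer that stayed inactive, and were sampled in step with the 0 h group, so that at later times pacing and elapsed time cannot be told apart. Every array set its sample against 1 control muscle reference, Pre. The ratios of the 6 arrays are therefore not independent, and a shared side of Pre on several arrays is not a repeated observation. The strain, the muscle, the age and the number of mice behind each RNA are not given in the sources used here. Values were log2 ratios. They were read as sample over Pre, the likely direction, since Pre is labelled the reference, although the dyes are not stated. All directions rest on that reading. With 1 array per group no difference has a replicate check and no p-value could be computed, and a ratio table holds no levels, so the tissue could not be checked against absolute marker levels. A probe was counted as called when it was 2-fold or more from its comparator, a log2 value of 1 or more in size.

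The actins form a family of nearly identical proteins that are told apart by tissue. Acta1 is the main thin filament actin of adult skeletal muscle, and Actc1 is the cardiac form, which skeletal muscle makes mostly before birth and during regeneration. Acta2 marks vascular smooth muscle, Actg2 marks the smooth muscle of gut and other hollow organs, and Actb and Actg1 are the cytoplasmic forms of all cells. Myl9 codes for the light chain whose phosphorylation starts contraction in smooth muscle. The sequences of actin genes are so alike that a probe can bind RNA of more than 1 form, so each value below is uncertain as to the isoform.

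The promoters of the members, where at hand, were searched for 1 known element. Muscle actin genes are textbook targets of serum response factor (SRF), which binds the CArG box, a short element with an A and T rich centre of 6 bases between 2 C and 2 G. RefSeq promoters (build GRCm38.p6, 250 bases before to 50 after the start) were at hand for 5 of the 7 members. These were Acta1, Actc1, Acta2, Actg1 and Myl9, and none was at hand for Actg2 or Actb. Both strands were covered, because a CArG box read on the opposite strand is again one. A box with only A and T in its centre was found in 4 of the 5, and in 1.63% of 32851 promoters in the table. With at most 1 other base in the centre, a box was found in all 5, and in 9.98% of all promoters. Actc1 had 4 such boxes, Acta1 had 3, Acta2 and Myl9 had 2 each, and Actg1 had 1. The windows of 40 bases below show 1 box for each gene, with only A and T in its centre except for Acta2, where it is the box farther from the start, 84 to 75 bases before it; the capitals mark the box and the strand is that of the gene.
Acta1 (chr8:123894824-123894863, minus strand): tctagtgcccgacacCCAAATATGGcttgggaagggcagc
Actc1 (chr2:114052898-114052937, minus strand): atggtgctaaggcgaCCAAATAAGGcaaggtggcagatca
Acta2 (chr19:34255433-34255472, minus strand): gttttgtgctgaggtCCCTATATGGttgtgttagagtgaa
Actg1 (chr11:120348561-120348600, minus strand): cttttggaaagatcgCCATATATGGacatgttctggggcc
Myl9 (chr2:156775288-156775327, plus strand): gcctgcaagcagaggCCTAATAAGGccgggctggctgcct
A match is a description of the sequence, and the arrays hold no measure of binding.

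A partial view of the precision of single probes comes from probes that share a source sequence. Among probes with exactly 1 symbol, 106 expressed sequence tags had a pair of exactly 2 probes. On the sham array 55 of these pairs were measured on both spots, and the 2 spots differed by a median of 0.65 in log2 units, with 14 pairs at least 2-fold apart and the widest 2.04 apart. At 1 h the median difference was 0.20 over 52 pairs, at 8 h it was 0.34 over 69, at 0 h 0.43 over 53, at 24 h 0.47 over 42 and at 3 h 0.60 over 47. Differences between 0 h and sham differed between the 2 spots of a pair by a median of 0.69 over 48 pairs, and 15 of those pairs were at least 2-fold apart. On each array many pairs lacked a value on a spot, while 87.3% to 95.2% of all probes were measured. The measured pairs may therefore not be typical of all probes. The probes of Acta2, Actg2 and Actb carry RefSeq transcripts and belong to no such pair. The sham array also stood apart in form, with 485 empty cells, 154 values repeated within a print block (a run of probes in ID order, read from the data), and the largest robust standard deviation (SD), 0.495, against 0.176 to 0.445 on the paced arrays. Of the 21 member probes 18 were measured in sham and 19, 19, 17, 20 and 19 at 0, 1, 3, 8 and 24 h. One Acta1 probe, probe 6909, was measured on none of the arrays.

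**Figure D1:**
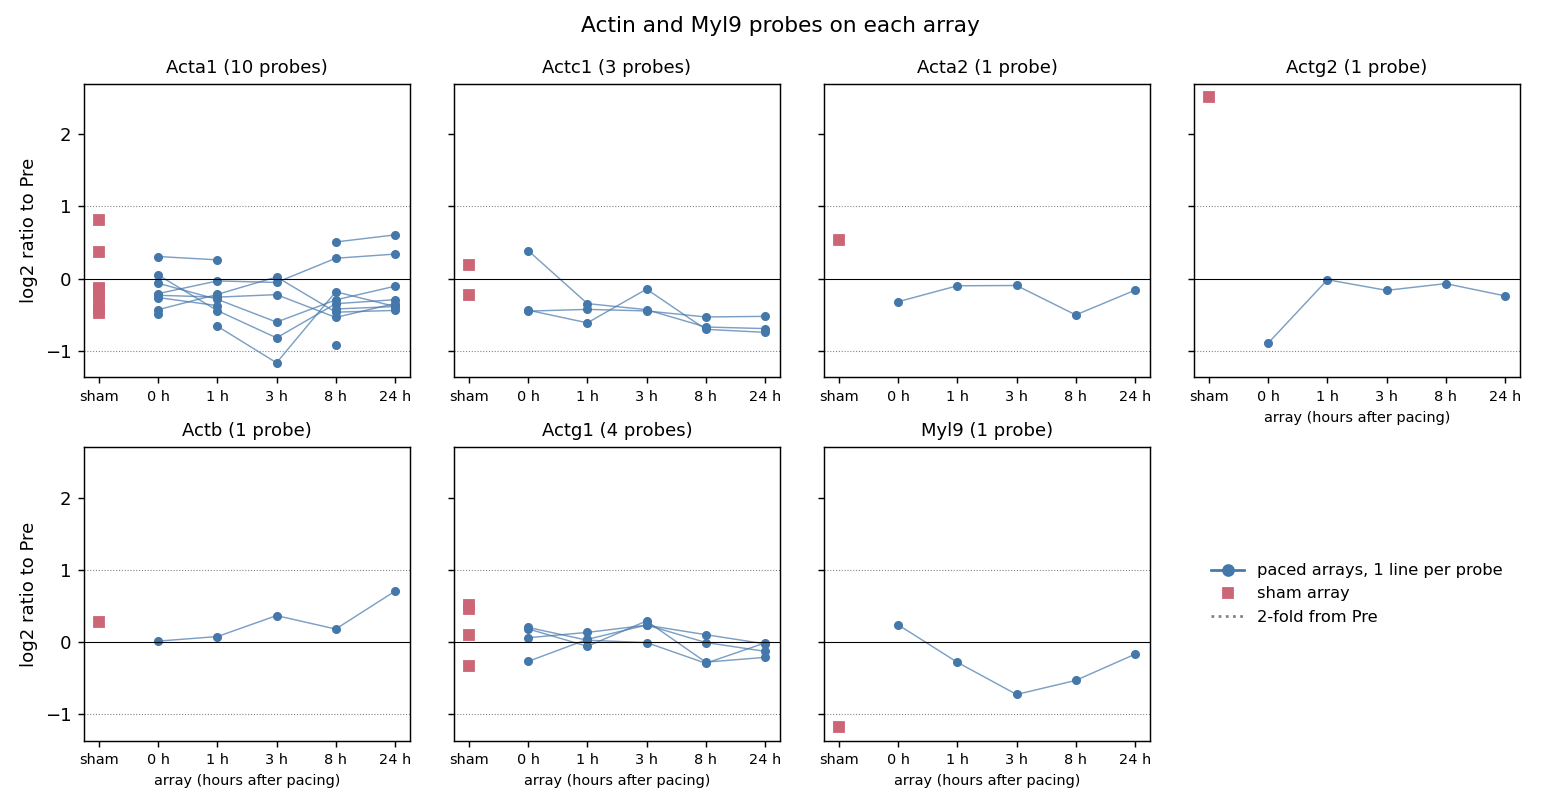
Log2 ratio to Pre (y axis) of every measured probe of the 7 genes on the sham array (squares) and 0 to 24 h after pacing (circles, 1 line per probe), with dotted lines at 2-fold from Pre. Actg2 stands at 2.52 and Myl9 at -1.18 in sham, while 1 probe of Acta1, at 3 h, is the only point beyond 2-fold on the paced arrays.

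Among the smooth muscle genes, Actg2 and Myl9 lay on opposite sides of Pre in sham muscle. Actg2, the enteric smooth muscle actin, had log2 ratios to Pre of 2.52 in sham and -0.89, -0.02, -0.16, -0.07 and -0.24 at 0, 1, 3, 8 and 24 h. It was thus far above Pre in sham and at or below Pre on all 5 paced arrays, with 0 h the lowest. The sham value, 5.72-fold over Pre, was the second highest of 13032 probes measured on that array. The 9 measured neighbours among the 10 nearest probes in ID order ranged from -0.27 to 1.74 in sham, with a median of -0.01. Whether they lie next to the Actg2 spot on the array is not known, and a fault of that spot was not tested. At 0, 1, 3, 8 and 24 h the measured neighbours had medians of -0.50, -0.16, -0.21, -0.18 and -0.45. The medians of the print block were 0.01, -0.0002, 0.02, -0.03 and -0.01 in the same order. No second probe of Actg2 checks the sham value.

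Myl9 had log2 ratios to Pre of -1.18 in sham and 0.24, -0.28, -0.72, -0.53 and -0.17 at 0, 1, 3, 8 and 24 h. Sham was the lowest array and 0 h the highest, the reverse of their order for Actg2. In sham it was 2.27-fold below Pre, the 189th lowest of 13032 probes. With arrays scaled to a common spread it stood at -0.81 there, short of the call.

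Acta2, the vascular smooth muscle actin, had log2 ratios of 0.54 in sham and -0.32, -0.10, -0.10, -0.50 and -0.16 at 0, 1, 3, 8 and 24 h. Like Actg2 it was above Pre in sham and below it on all 5 paced arrays. It was not 2-fold from Pre on any array, and its sham value was less than the median gap of 0.65 between paired tag probes there. On the sham array 2 of 18 member probes were called against Pre, Actg2 and Myl9, while 5.76% of all probes were. The Actg2 value there was known when the genes were chosen, so this count is no comparison with the array. On the 1 sham array the single probes of Actg2 and Acta2 lay above Pre and that of Myl9 below it. No replicate or second probe checks these sides.

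The listed partners of these genes in smooth muscle that had a value did not share the height of Actg2. Of 22 listed smooth muscle contractile genes, 8 had a value in sham, 7 of them below Pre, with a median log2 ratio of -0.14, against -0.03 over 3836 genes. Those with a value included Tpm1 and Tpm2, which are also listed below as skeletal thin filament partners. Myh11, Smtn, Mylk, Lmod1 and Tagln had no value in sham. The count thus does not speak for smooth muscle alone. No member of that list was 2-fold from Pre on any of the 6 arrays or from sham at any of the 5 times. Over all genes 0.770% to 5.39% were called against Pre and 1.54% to 6.50% against sham. With 8 to 10 of the 22 measured, a lack of calls is thus no result about the list. Of 9 smooth muscle markers 2 had a value in sham: Cnn1, the calponin of smooth muscle, at -0.59 and Myocd, the SRF cofactor of smooth muscle, at -0.95. At 0 h 4 of the 9 were measured and ranged from -0.84 to 0.10. The marker Tagln, a smooth muscle actin-binding protein, was not measured in sham and lay between -0.07 and 0.11 on the paced arrays. Whether the amount of smooth muscle in the samples had a part in the values of Actg2, Acta2 and Myl9 was not tested, and in whole muscle fewer cells of a type and less RNA per cell cannot be told apart.

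**Figure D2:**
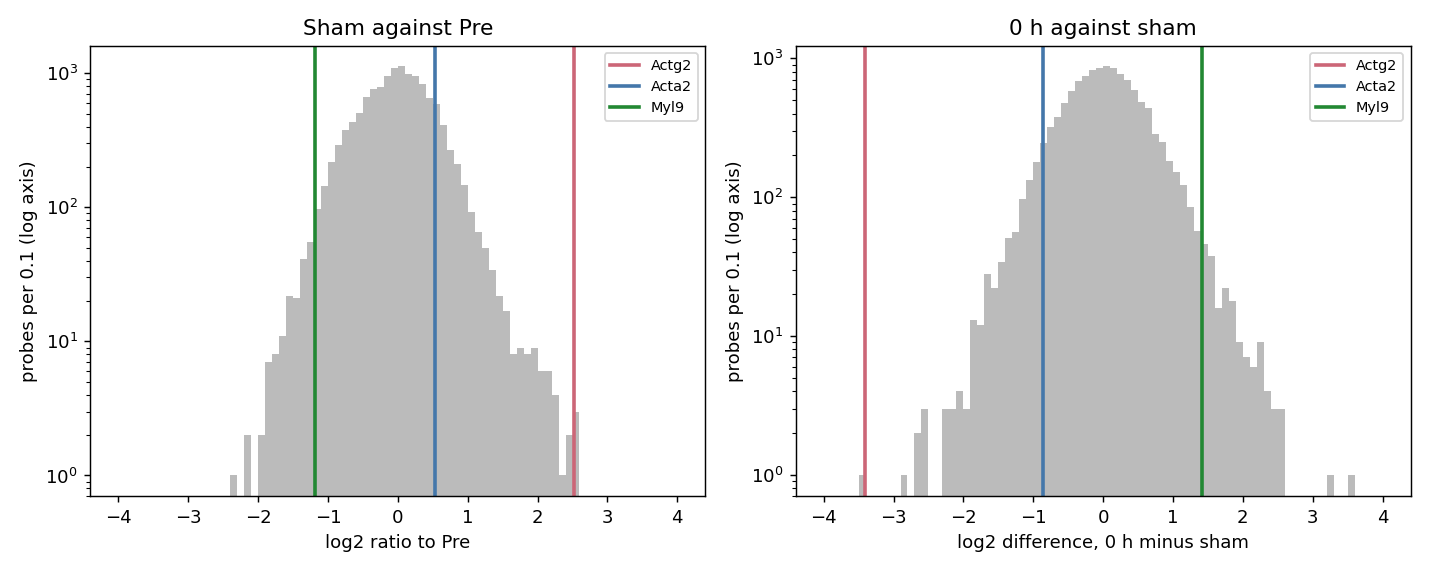
Number of probes per 0.1 log2 units (y axis, log scale) by log2 ratio of sham to Pre (left) and by log2 difference of 0 h minus sham (right), with the probes of Actg2, Acta2 and Myl9 as vertical lines. Actg2, at 2.52 and -3.41, lies at opposite ends of the panels, and Myl9, at -1.18 and 1.42, lies across from it. The sham value enters both panels with opposite sign, so this mirroring is largely built in.

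Against sham, Actg2 was lower at all 5 times, and these comparisons share the 1 sham value. The log2 differences, paced minus sham, were -3.41, -2.53, -2.68, -2.59 and -2.76 at 0, 1, 3, 8 and 24 h. At 0 h this was 10.6-fold lower than sham and the lowest of 11794 probes measured on both arrays. It was also the lowest at 1 h and 3 h, the second lowest at 8 h and the third lowest at 24 h. The high sham value, known when the genes were chosen, enters every one of these ranks. They are therefore no separate result about pacing. Against Pre none of the 5 paced values of Actg2 was 2-fold, although the 0 h value passed the call with arrays scaled to a common spread (-1.04).

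Myl9 differed from sham in the other direction, with log2 differences of 1.42, 0.90, 0.46, 0.65 and 1.01 at 0, 1, 3, 8 and 24 h. These differences share the 1 low sham value, -1.18 against Pre. The probe was 2.68-fold higher than sham at 0 h and 2.02-fold higher at 24 h, although at 24 h it stood at -0.17 against Pre. The 24 h call ended when each print block was centred on its own median (0.92) and when arrays were scaled to a common spread (0.67). Under that scaling the differences of Myl9 at 1, 3 and 8 h were 0.27, 0.26 and 0.07. Acta2 had differences of -0.86, -0.64, -0.63, -1.04 and -0.70 in order of time, and was called at 8 h, 2.06-fold lower than sham.

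In all, 2 of 17 member probes were called at 0 h against sham, Actg2 lower and Myl9 higher, beside 9.03% of all probes. At 1 h it was 1 of 18, Actg2, beside 2.52%, and at 3 h 1 of 16, Actg2, beside 3.83%. At 8 h it was 2 of 18, Actg2 and Acta2, both lower, beside 5.37%, and at 24 h 2 of 18, Actg2 lower and Myl9 higher, beside 8.31%. Actg2 enters each count through 1 sham value, known to be high when the genes were chosen. The counts are therefore no comparison of the family with the array. Apart from Actg2 the calls were Myl9 at 0 h and 24 h and Acta2 at 8 h. None of the probes of Acta1, Actc1, Actb or Actg1 was 2-fold from sham at any time as reported here. With arrays scaled to a common spread, Actc1 probe 1719 passed the call at 1 h (-1.32) and 8 h (-1.12) and Acta1 probe 12411 at 1 h (-1.06), and with zeros kept as values Acta1 probe 12699 passed it at 8 h (-1.38).

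**Figure D3:**
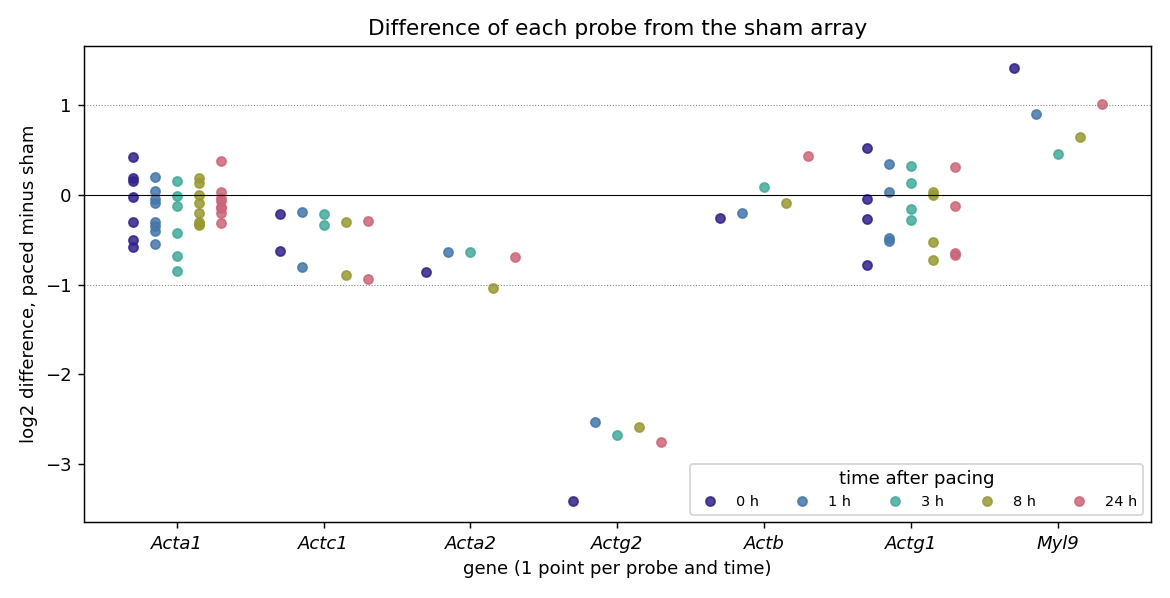
Log2 difference from the sham array (y axis) of each probe measured on both arrays, by gene (x axis) and time after pacing (colour), with dotted lines at 2-fold. Actg2 lies between -3.41 and -2.53 and Myl9 between 0.46 and 1.42, while the probes of Acta1 lie between -0.85 and 0.42.

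Acta1, the skeletal muscle actin, stayed near Pre on average, with probes on both sides of it on every array. The means of the measured probes were -0.07 in sham (probe SD 0.44, 8 probes), -0.17 at 0 h (SD 0.26, 8 probes), -0.25 at 1 h (SD 0.28, 8 probes), -0.47 at 3 h (SD 0.47, 6 probes), -0.27 at 8 h (SD 0.43, 9 probes) and -0.13 at 24 h (SD 0.39, 8 probes). These SDs are spreads over spots of 1 RNA, not over animals, and each mean except that at 3 h lay less than 1 probe SD from Pre. The 3 h mean was the lowest, and 4 of the 10 probes had no value there. The sham mean turned to 0.05 when zeros and repeated values were kept, so its side of Pre was not settled. As a median of probes Acta1 stood at -0.18 in sham and at -0.32 at 24 h, and with arrays scaled to a common spread at -0.49 at 1 h.

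Probe by probe, Acta1 had 1 spot that was above Pre wherever it was measured and others that were always below it. Probe 10332 was above Pre on all 5 arrays that measured it, at 0.80 in sham and 0.30, 0.26, 0.51 and 0.60 at 0, 1, 8 and 24 h. Probe 10044 was above Pre in sham (0.37), at 8 h (0.28) and at 24 h (0.34) and just below it otherwise. Probes 5693, 9161, 12411 and 12523 were below Pre wherever they were measured, from -0.07 for probe 9161 at 0 h to -1.17 for probe 12411 at 3 h. The last value was the 1 call among Acta1 probes on any array, and on the 3 h array it was the 1 call among 17 member probes, beside 7.14% of all probes. With arrays scaled to a common spread it was -0.90, short of the call, and the same probe passed it at 1 h (-1.28).

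The remaining Acta1 probes lay below Pre on most arrays. Probe 3223 had values of -0.13 in sham and -0.43, -0.22, 0.02, -0.47 and -0.44 at 0, 1, 3, 8 and 24 h. Probe 6621 had -0.14, 0.05, -0.44, -0.82, -0.35 and -0.29 in the same order. Probe 12699 was measured only at 0 h (-0.49) and at 8 h (-0.92). It repeats the same sequence tag as probe 12411, which stood at -0.18 at 8 h, a gap of 0.74 between 2 probes of 1 tag on 1 array. Against sham, the mean difference of Acta1 was -0.09 at 0 h (probe SD 0.38, 7 probes), -0.19 at 1 h (SD 0.25, 8 probes), -0.32 at 3 h (SD 0.40, 6 probes), -0.12 at 8 h (SD 0.21, 8 probes) and -0.06 at 24 h (SD 0.21, 8 probes), each smaller than its probe SD.

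Actc1, the cardiac actin, was below Pre on all 3 probes from 1 h to 24 h, and the probes came closest together late. Probe 1719 had log2 ratios of 0.19 in sham and -0.44, -0.61, -0.15, -0.70 and -0.75 at 0, 1, 3, 8 and 24 h. Probe 12121 had -0.23, -0.45, -0.43, -0.45, -0.53 and -0.52 in the same order. Probe 2868 had no value in sham and stood at 0.39, -0.35, -0.43, -0.67 and -0.69 at 0, 1, 3, 8 and 24 h. The mean of the 3 probes was -0.64 at 8 h (probe SD 0.09) and -0.65 at 24 h (SD 0.12), against -0.17 at 0 h (SD 0.48), where 1 probe lay on the other side of Pre. No probe of Actc1 reached 2-fold from Pre, except probe 1719 at 1 h with arrays scaled to a common spread (-1.19). From sham, the 2 probes with a value there differed by a mean of -0.60 at 8 h (SD 0.42) and -0.61 at 24 h (SD 0.45), so they had the same direction but unequal size.

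Actb, a cytoplasmic actin often used as a reference gene, was above Pre on all 6 arrays. Its single probe had log2 ratios of 0.28 in sham and 0.01, 0.08, 0.37, 0.18 and 0.71 at 0, 1, 3, 8 and 24 h. The 24 h array was the highest, 1.63-fold over Pre. It was 0.43 above sham in log2 units, short of the call. That was also less than the median gap of 0.64 between paired tag probes in the same difference. At 8 h the difference from sham was -0.09, and it turned to 0.07 with arrays scaled to a common spread.

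Actg1, the other cytoplasmic actin, was below Pre at 24 h, where Actb was above it. Its 4 probes averaged 0.19 in sham (probe SD 0.39), 0.05 at 0 h (SD 0.22), 0.04 at 1 h (SD 0.08), 0.19 at 3 h (SD 0.13), -0.12 at 8 h (SD 0.20) and -0.09 at 24 h (SD 0.09). At 24 h all 4 probes lay below Pre, from -0.21 to -0.01, while Actb stood at 0.71 on its 1 probe. In sham 3 probes lay above Pre, at 0.10, 0.45 and 0.52, and probe 4293 lay at -0.32. The pair of probes that carry the same RefSeq transcript, probes 3480 and 6046, differed by 0.06 in sham and by 0.45 at 0 h. Against sham the mean difference of the 4 probes ranged from -0.31 at 8 h (SD 0.38) to 0.00 at 3 h (SD 0.27), with probes on both sides of sham at every time.

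Over all member probes, more lay below Pre than above it on each paced array. The counts below Pre were 11 of 19 at 0 h, 14 of 19 at 1 h, 12 of 17 at 3 h, 16 of 20 at 8 h and 16 of 19 at 24 h. The median of the member probes was -0.21, -0.22, -0.15, -0.32 and -0.21 at these times, where each array had been centred so that the median of all probes was 0. In sham 9 of 18 were below Pre, with a median of -0.02. The probes of Acta1 made up 10 of the 21, so that gene weighs most in these counts. At 0, 1, 8 and 24 h no member probe was 2-fold from Pre, beside 2.61%, 1.08%, 2.90% and 6.95% of all probes. With arrays scaled to a common spread 1, 2, 1 and 0 member probes passed at these times.

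The genes that act on actin filaments gave few calls. Over all genes the share called against Pre was 4.07% in sham and 2.11%, 0.770%, 5.39%, 2.22% and 5.29% in order of time after pacing. Against sham it was 6.50%, 1.54%, 2.42%, 3.66% and 5.98% in the same order. Of 48 genes of actin filament turnover and nucleation, 28 had a value in sham. The 1 call was Diaph2, a formin that nucleates filaments, at -1.21 in sham. At 0 h Diaph2 was the 1 of 25 measured that was 2-fold from sham, at 1.06, with -0.15 against Pre. At 24 h the list had a median of 0.06 against Pre, beside 0.01 over all genes, and 0 of 28 members were 2-fold from Pre or from sham.

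The thin filament and Z-disc partners of skeletal actin had 20 of 24 genes measured. Lmod3, a leiomodin that nucleates thin filaments in skeletal muscle, was below Pre on every array, at -0.73 in sham and -0.87, -0.74, -1.17, -1.19 and -1.59 at 0, 1, 3, 8 and 24 h, on 1 probe. It was not 2-fold from sham at any time. Lmod2, another leiomodin, stood at 1.14 at 3 h on 1 probe, and that probe differed from sham by 0.61, while the gene means differed by 1.12. Lmod2 and Lmod3 at 3 h and Lmod3 at 8 h and 24 h were the only calls of this list against Pre. Its median against Pre was -0.22 at 24 h, with 15 of 20 below Pre. Its members included, at 24 h, the tropomyosin genes Tpm1 at -0.58 (probe SD 0.39, 87 probes) and Tpm2 at -0.66 (SD 0.44, 7 probes).

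Of 19 partners of Myl9, 7 were measured, 6 of them at 24 h. Myl12b, the nonmuscle regulatory light chain closest in role to Myl9, stood at 1.91 at 24 h (probe SD 1.54, 5 probes) and at 0.24 in sham (SD 0.54, 8 probes), the 1 call of the list at 24 h against Pre and against sham. The probe SD at 24 h was nearly as large as the mean. Ppp1cb, the catalytic subunit of the phosphatase that acts on the light chain, stood between -0.07 and 0.11 on the paced arrays, against 0.70 in sham. Of 24 genes of the SRF list, Ankrd1, a repeat protein of sarcomere and nucleus, was the 1 called, at 1.52 at 8 h and 2.99 at 24 h against Pre (3 probes, SD 1.12 and 1.83). It was also the 1 called against sham, at 1.54 and 3.01 at these times. Srf itself stood between -0.46 and -0.18 on the paced arrays, against -0.62 in sham. This list had 12 of 15 members below Pre in sham, with a median of -0.11.

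Genes with the most similar profile were found by the root mean square difference of log2 ratios over the 6 arrays, among 3176 other genes measured on all of them. For Actg2 the nearest were Sertad1 at 0.33, Ift20 at 0.45 and Wdr90 at 0.60, with sham ratios of 1.76, 2.09 and 1.34. No gene came as close to Actg2 as the nearest genes came to the other 6 members. Its extreme sham value, known when the genes were chosen, enters this distance, and Acta1, Actc1 and Actg1 are means of several probes. For Myl9 they were Ndufaf7 at 0.18, Socs5 at 0.19 and Zfand6 at 0.20, all below Pre in sham. For Acta2 they were Cenpq at 0.08, Rragd at 0.14 and Prkaca at 0.14. The nearest to Actb were Prim1 at 0.07, Cfl2, the muscle form of the filament-severing protein cofilin, at 0.08, and Atp13a3 at 0.10. Acta1 was nearest to Ddt at 0.06, Commd1 at 0.10 and Slc38a10 at 0.10. Actc1 was nearest to Sparc at 0.09, S100a4 at 0.11 and Topbp1 at 0.13, and Actg1 to Litaf at 0.05, Idh3b at 0.06 and Mybpc2 at 0.06.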

How the data were processed

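The authors deposited log10 ratios, 1 for each probe on each array. The log base was read from 97 cells with a rounding residue of up to 9.64e-17. The scanner, background correction and normalisation are not given in the sources used here. Exact zeros (1260 at 1 h and 1673 at 3 h, for example) and sham values repeated within a run of 289 probes were set to missing. The log2 ratios used here had the median over measured probes subtracted array by array (largest shift -0.01). Symbols came from the platform annotation, updated by Entrez ID in the GRCm38.p6 gene table for 6599 of 6609 probes, from which no coordinates were taken. Probes of 1 gene were averaged. Differences from sham used probes measured on both arrays for the members, and gene means for the lists. All 15 pairs of arrays correlated positively over probes (r from 0.19 to 0.71). All arrays share the reference Pre, so these correlations are no measure of how alike the samples are. With 1 array per group a call was a 2-fold difference, and no test was run. The number of arrays limits the precision. The calling steps were tested on simulated data.

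The members and lists were chosen with earlier results of these data known. Named genes were the members, the 3 genes nearest to each, up to 4 called genes per list, and markers where they are counted. Other list genes (Tpm1, Tpm2, Ppp1cb and Srf) were chosen after their values were seen. The alternatives kept zeros and repeated values, left out the centring, scaled arrays to a common spread, centred each print block, took the median of probes, used probes measured on all 6 arrays, or counted probes with several symbols. Python 3.11.15, pandas 2.3.3, numpy 2.4.6 and matplotlib 3.10.9 were used.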

Additional observations from a re-analysis of the deposited data

Results flagged for a closer look

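Probe 4590, which the annotation gives to both Actg1 and Gm8543, a pseudogene, was left out of the values above and stood at -2.15 against Pre at 24 h, although it stood at 0.40 in sham. It stands out because the value is 2-fold from Pre in data that the comparisons did not use. On the other arrays it stood at 0.45 at 1 h, 0.20 at 3 h and -0.04 at 8 h, with no value at 0 h. Probe 4302, which repeats the same sequence tag, stood at -0.06 at 24 h and at 0.12 in sham. The low value was thus seen on 1 of the 2 spots.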

How the results depend on the processing

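Of 473 recomputed log2 values of member genes, 469 kept their side of the 2-fold threshold. Many of these could not have changed. Acta2, Actg2, Actb and Myl9 had 1 probe each, measured on every array. For them the median of probes and the limit to probes measured on every array return the same value by construction. Only 10 of the 77 gene values were called in the first place. The count of 469 is therefore no measure of how robust the calls are. Arrays scaled to a common spread changed the most: the number of member probes called against Pre became 1 in sham and 1, 2, 0 and 1 at 0, 1, 3 and 8 h, and against sham it became 3, 3 and 1 at 1, 8 and 24 h. The values without it were 2 in sham and 0, 0, 1 and 0, and against sham 1, 2 and 2. Under that scaling Myl9 stood at -0.81 in sham, below the threshold, and Actg2 passed it at 0 h against Pre, at -1.04. Print-block centring left 1 member probe called at 24 h against sham. Leaving out the centring changed none of the 11 counts, and keeping zeros and repeated values changed 1, to 3 at 8 h against sham. The sign turned in 3 uncalled gene values: Acta1 in sham (0.05 with zeros kept), Actb at 8 h against sham (0.07 with a common spread) and Actg1 at 3 h against sham (0.00, with -0.05 the lowest). The difference of Actg2 from sham ranged from -3.42 to -2.78 at 0 h over the alternatives, and its sham ratio from 1.74 to 2.52. The cause of these shifts was not tested. No paired analysis was possible because each group had 1 array. Depth and signal over background are unknown for these ratios.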

Other observations

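Markers of other cell types on the sham array gave values on both sides of Pre. None was 2-fold from it, beside 4.07% of 3836 genes, and few markers were measured. Of 9 fibroblast markers 6 were measured, with a median log2 ratio of 0.14 and a range from -0.62 to 0.48. Of 8 endothelial markers 4 were measured, with a median of -0.17, and Cdh5, a junction protein of vessels, was the lowest at -0.87. Of 9 leukocyte markers 2 were measured, Ptprc at 0.93 and Lyz2 at -0.16. Of 6 blood markers 2 were measured, at 0.13 and 0.30, and of 6 adipocyte markers 2, at 0.33 and 0.41. Pmp22, the 1 of 5 nerve markers measured, stood at 0.13, and none of the 10 satellite cell markers had a value in sham. The 11 of 13 measured markers of skeletal muscle fibres ranged from -0.57 to 0.24. At 3 h 4 of 6 measured fibroblast markers lay below Pre and 2 above it, with a median of -0.46. Lum, at -1.12 on 2 probes, and Pdgfra, at -1.23 on 1 probe, were 2-fold below Pre there, beside 5.39% of all genes called. At 24 h 5 of 6 lay below Pre, and Lum was again 2-fold below it, at -1.38 on 1 probe. Over all genes 5.29% were called there. At 3 h Pdgfra was also 2-fold below sham, beside 2.42% of all genes called. Cdh5 was 2-fold above sham as a gene mean, at 1.19, but stood at 0.88 on the 1 probe measured on both arrays. Casq1, the calcium store protein of muscle fibres, stood at -1.16 at 8 h and -1.43 at 24 h against Pre (9 probes, SD 0.67 and 0.84). Of 12 measured fibre markers 4 lay above Pre at 8 h and 3 at 24 h, with medians of -0.16 and -0.26.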
